A study of Homo sapiens with 14 samples.

Results

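CCN1, CCN2, ANKRD1, AMOTL1, AMOTL2, AJUBA, AXL and F3 are 8 genes widely used as readouts of the transcriptional coactivator YAP. For each of them, all peaks that overlapped the gene body with 50 kb on each side (hg19, GENCODE) were collected. These windows held 135 of the 127643 regions found for 4 chromatin targets, and the 8 genes are among 19821 protein-coding genes of the annotation. The data came from LX-2, an immortalised line of human hepatic stellate cells, the cells that turn into scar-forming myofibroblasts in liver fibrosis. The cells were wild type and were kept for 2 days on a soft or on a stiff matrix, and the study asked how matrix stiffness changes chromatin and AP-1 binding. CUT&Tag, in which an antibody brings a transposase to its target so that nearby DNA is cut out and sequenced, was done for phosphorylated JUN (p-JUN), H3K4me3, H3K27me3 and H3K27ac. There were 2 libraries per matrix for p-JUN, H3K4me3 and H3K27me3, and 1 list per matrix, named as merged, for H3K27ac, 14 lists in all. The 2 stiff p-JUN libraries are titled TCP, a name the study uses for culture plastic. For p-JUN, stiff therefore means the 2 libraries whose treatment label reads stiff.

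YAP and its paralogue TAZ are held in the cytoplasm by the Hippo kinases and enter the nucleus when cells spread on a rigid support and build actin stress fibres. They do not bind DNA themselves but through TEAD factors, often at enhancers that also carry AP-1, the dimer of JUN and FOS family proteins. Phosphorylation of JUN by stress kinases raises its activity. H3K4me3 marks active promoters, H3K27ac active promoters and enhancers, and H3K27me3 genes silenced by Polycomb. In stellate cells this pathway is known for turning matrix rigidity into the expression of matrix proteins such as CCN2.

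Sequences under p-JUN sites of these genes are shown first, with the AP-1 and TEAD motifs in them marked. The sequences are 101 bases of GRCh37 (hg19), plus strand, centred on the p-JUN summit, and capitals mark TGACTCA or TGAGTCA (AP-1, both strands) and GGAATG or CATTCC (TEAD, both strands). The sites of CCN1, ANKRD1, AMOTL1, AXL and F3 are the strongest regions away from start sites that were called in all 4 libraries in the window of each gene. The CCN2 site next to the promoter and the AJUBA site inside the gene were picked because both lie near an annotated start site and hold TEAD motifs. Their TEAD motifs thus follow from the choice. Other regions near start sites without a TEAD motif, such as that of ANKRD1, are not printed. The strongest regions away from start sites of AMOTL2 and AJUBA overlapped exons and are not printed.
CCN1, 26.6 kb downstream (chr1:86073023-86073123): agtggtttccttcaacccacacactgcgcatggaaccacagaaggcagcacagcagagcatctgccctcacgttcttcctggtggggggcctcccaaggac
CCN2, 0.1 kb upstream (chr6:132272535-132272635): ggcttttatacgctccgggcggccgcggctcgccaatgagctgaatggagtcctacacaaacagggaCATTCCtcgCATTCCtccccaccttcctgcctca
ANKRD1, 39.5 kb upstream (chr10:92720288-92720388): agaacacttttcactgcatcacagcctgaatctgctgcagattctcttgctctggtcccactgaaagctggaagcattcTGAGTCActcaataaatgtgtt
AMOTL1, 26.6 kb downstream (chr11:94528033-94528133): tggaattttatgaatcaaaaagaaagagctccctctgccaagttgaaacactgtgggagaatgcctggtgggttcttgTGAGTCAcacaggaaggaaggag
AJUBA, 4.7 kb downstream (chr14:23447033-23447133): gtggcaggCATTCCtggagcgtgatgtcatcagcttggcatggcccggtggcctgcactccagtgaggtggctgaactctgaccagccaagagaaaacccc
AXL, 4.5 kb downstream (chr19:41729598-41729698): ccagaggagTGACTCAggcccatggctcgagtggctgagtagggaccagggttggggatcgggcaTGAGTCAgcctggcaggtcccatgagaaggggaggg
F3, 38.3 kb upstream (chr1:95045533-95045633): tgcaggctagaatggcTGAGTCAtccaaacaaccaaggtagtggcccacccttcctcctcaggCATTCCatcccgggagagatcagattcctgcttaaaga
AXL carried a pair of AP-1 motifs and no TEAD motif, CCN2 at 0.1 kb upstream a pair of TEAD motifs and no AP-1 motif, and F3 at 38.3 kb carried both kinds. The CCN1 stretch, under the strongest p-JUN region of all 8 windows by rank, held neither motif.

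Whether the lists looked like LX-2 cells was checked at promoters first. H3K4me3 lay within 1 kb of a start site in all 4 libraries for 5 of 8 stellate or mesenchymal markers (ACTA2, COL1A1, PDGFRB, VIM and TIMP1), and in no library for COL1A2 and LRAT. The hepatocyte markers ALB, APOA1, TTR and HNF4A had none in any library. The same was true of CDH5 and VWF for endothelium, of PTPRC and CD68 for leukocytes, and of KRT19 and KRT7 for cholangiocytes. CD14 and EPCAM were the exceptions, with H3K4me3 in all 4 libraries. The lists held 48163 to 54168 p-JUN peaks, 18096 to 18857 H3K4me3 peaks, 6974 to 19843 H3K27me3 peaks, and 18238 (soft) and 13322 (stiff) H3K27ac peaks. Heights below are fragments at the peak summit, computed from the deposited values, and the median summit held 60 to 64 fragments for p-JUN, 120 to 207 for H3K4me3 and 26 to 27 for H3K27ac. Scaled fragments were divided by a factor per library that set the median region equal, between 0.930 and 1.079 for p-JUN and between 0.768 and 1.40 for H3K4me3. The study's methods call the replicates of its sequencing experiments biological, but nothing in the labels says that those used here came from separate cultures. The p-values therefore measure no more than the spread between these libraries, which may be technical.

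All 8 genes had H3K4me3 and p-JUN within 1 kb of at least 1 annotated start site in every library. For AXL and AJUBA the p-JUN region of all 4 libraries lay near an internal start site, and for CCN2 0.9 kb downstream of the start. Over all protein-coding genes, 62.8% had H3K4me3 and 38.2% had p-JUN there in all 4 libraries. H3K27ac divided the genes. ANKRD1, a titin-binding ankyrin repeat protein of stretched muscle and activated mesenchyme, had H3K27ac at its start site in both lists. AXL, a receptor tyrosine kinase for GAS6, had it at the main start site in the soft list and 6.5 kb downstream, near an internal start site, in the stiff list. AMOTL1 and AMOTL2, angiomotin-like junction proteins that bind and restrain YAP, and F3, the tissue factor that starts coagulation, had it in the soft list alone. CCN1 and CCN2, secreted matricellular proteins, and AJUBA, a LIM protein that inhibits the LATS kinases, had none in either list. That made 2 of 8 genes with H3K27ac near a start site in both lists, 3 in the soft list alone and 0 in the stiff list alone, where 21.2%, 10.7% and 2.58% of all protein-coding genes fell. The soft-list peaks of AMOTL1, AXL and F3 ranked low, at the top 95.3%, 89.9% and 90.4% of that list, and that of AMOTL2 at the top 67.3%. With both lists cut to equal length, AMOTL2 was the only gene left with H3K27ac on soft alone. No H3K27me3 peak lay within 1 kb of a start site of any of the 8 genes in any library, against 10.3% of all genes in at least 1 library. Genes with several start sites have more chances to be counted, from 1 site for CCN1, CCN2 and ANKRD1 to 9 for AMOTL2.

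**Figure D1:**
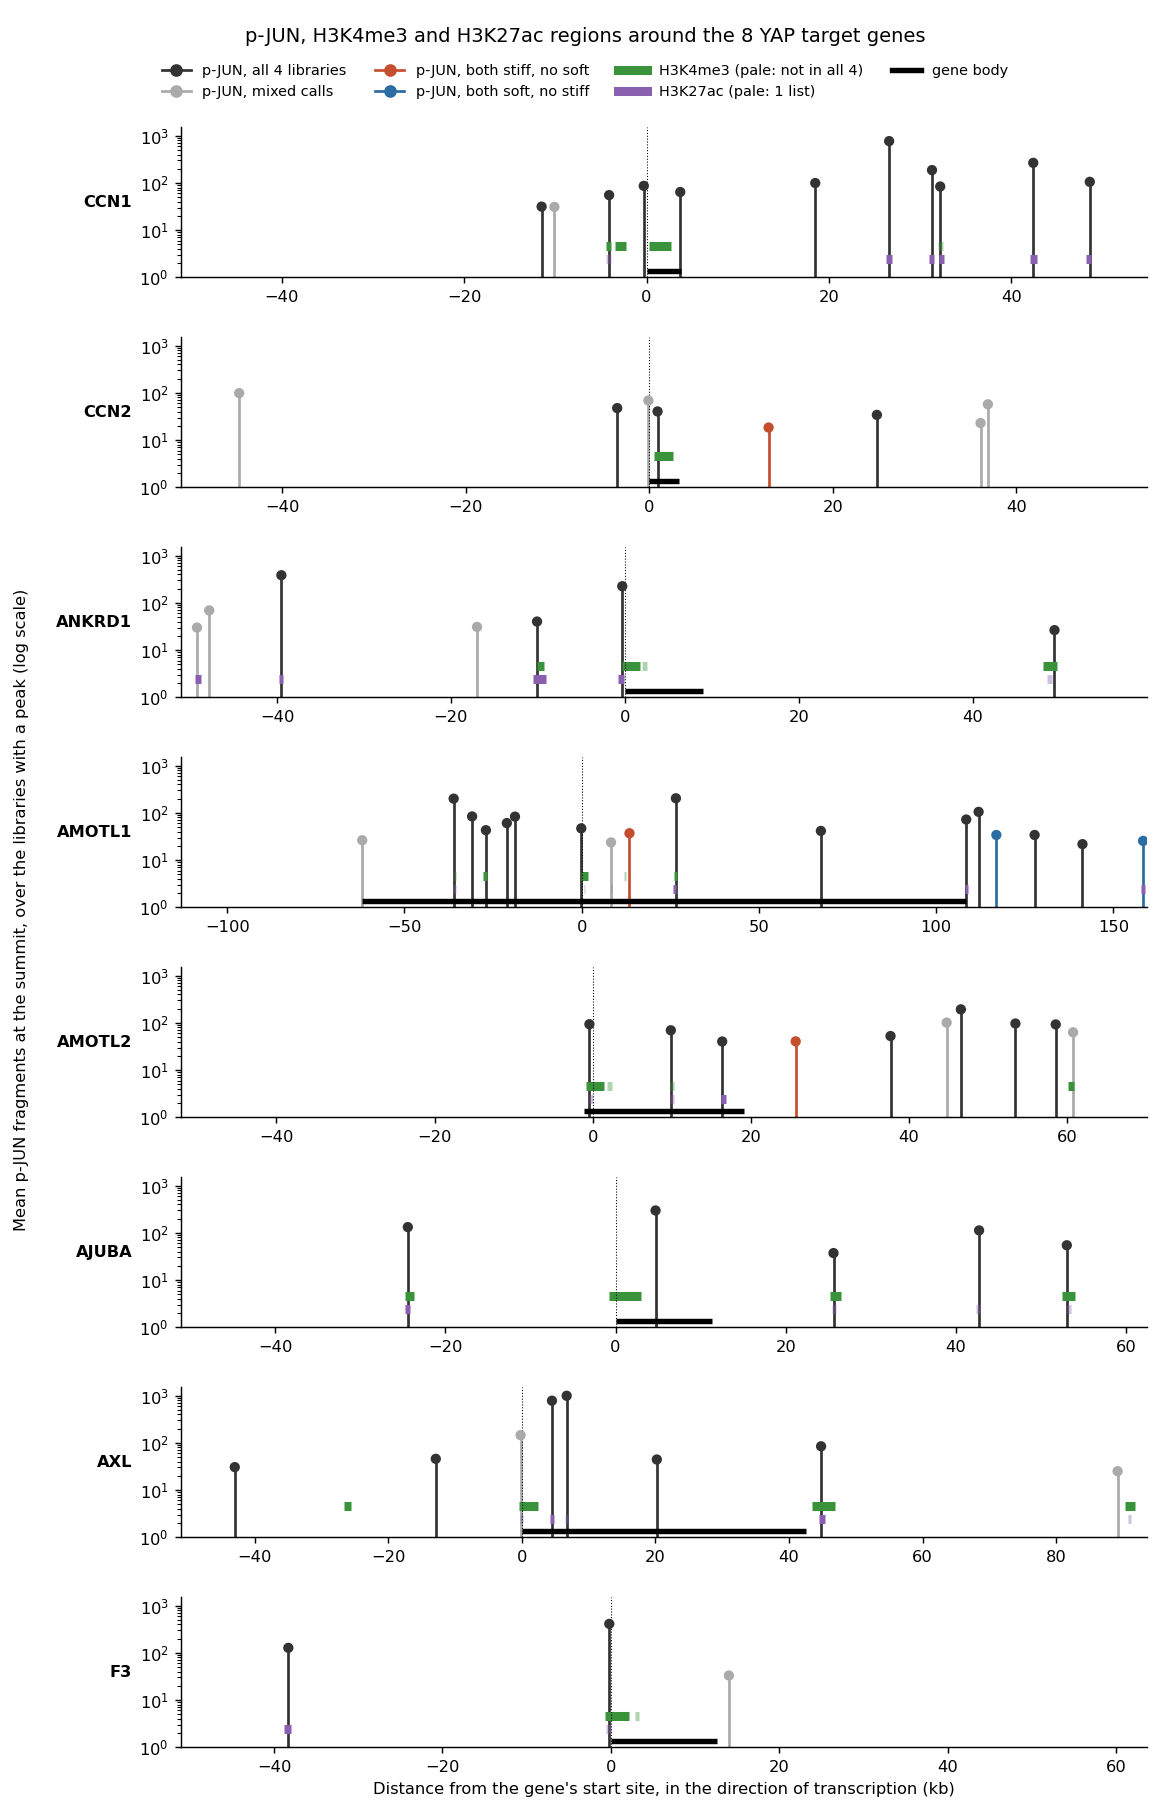
Each panel shows 1 gene window, with the distance from the start site in kb on the x axis and the mean p-JUN fragments at the summit, over the libraries with a peak, on a log y axis. Lollipops are p-JUN regions coloured by the libraries that called them, green and purple bars are H3K4me3 and H3K27ac regions, and the black bar is the gene body. CCN1 has its tall p-JUN regions 18.5 to 48.6 kb downstream, most of them with H3K27ac. The CCN2 window has no H3K27ac, and its p-JUN regions called in all 4 libraries are short. A taller CCN2 region 44.7 kb upstream was called in 3 libraries.

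The windows differed widely in how much p-JUN they held. Regions called in all 4 libraries numbered 10 for CCN1, 3 for CCN2, 4 for ANKRD1, 12 for AMOTL1, 7 for AMOTL2, 5 for AJUBA, 6 for AXL and 2 for F3. Per 100 kb of window this was 9.63 for CCN1, a density above that of 99.8% of 19821 genes, and 5.83 for AMOTL2, above 95.4%. AJUBA (4.49), AMOTL1 (4.44), AXL (4.21) and ANKRD1 (3.67) followed, CCN2 had 2.91, and F3, at 1.78, lay just under the median of all genes of 1.85. Ranked by mean −log10 p among 40433 such regions of the genome, the strongest of the CCN1 window stood at place 158 and that of AXL at 231. Those of ANKRD1 (1113), F3 (1574), AJUBA (3659) and AMOTL1 (6004) stood in the upper part, and that of AMOTL2 at 12933. The strongest of CCN2 stood at 32250, in the lowest part of the ranking.

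CCN1 (chr1:86046444-86050272, plus strand) and CCN2 (chr6:132269316-132272512, minus strand) are paralogues, and both bind integrins in the matrix. The strongest CCN1 region (chr1:86072289-86073419), between genes 26.6 kb downstream of the start site, held 725 and 736 scaled p-JUN fragments on soft against 738 and 852 on stiff. Soft and stiff did not overlap there, but the soft 2 and stiff 1 libraries were nearly equal. In each library it stood within the top 0.162% to 0.446% of p-JUN peaks. H3K27ac covered it in both lists, with 64 fragments for soft matrix and 72 for stiff. In all, 5 p-JUN regions downstream of CCN1, at 26.6, 31.3, 32.2, 42.4 and 48.6 kb, overlapped H3K27ac in both lists. At the CCN1 start site the p-JUN region (0.3 kb upstream) was lower, with 95.2 and 83.9 scaled fragments on soft and 76.8 and 88.1 on stiff, which overlapped.

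In the CCN2 window the region over the promoter (chr6:132272428-132272683), the one with the pair of TEAD motifs printed above, was called in soft replicate 1 with 85 fragments and in stiff replicate 2 with 53, and in neither of the other libraries. A second region 0.9 kb downstream, in an exon of CCN2, was called in all 4 libraries with 42.0 and 50.5 scaled fragments on soft and 39.5 and 30.6 on stiff. Both stiff values were below both soft values, at a stiff minus soft log2 difference of -0.41 (SE 0.21, adjusted p = 0.192). The strongest CCN2 region away from the start and in all 4 libraries, 24.8 kb downstream in an intron of LINC01013, held 34.5 and 35.5 scaled fragments on soft against 34.1 and 32.4 on stiff. A taller region 44.7 kb upstream held 122 and 85 fragments on soft and 90 in stiff replicate 1, without scaling, and was not called in stiff replicate 2. No H3K27ac peak fell anywhere in the CCN2 window in either list, although H3K4me3 lay inside the gene, 531 bp from its start.

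ANKRD1 (chr10:92671853-92680844, minus strand) had a tall p-JUN region at its start site (chr10:92680782-92681669), with 193 and 215 scaled fragments on soft and 199 and 286 on stiff. Stiff replicate 2 was the highest and the groups overlapped. The ANKRD1 region 39.5 kb upstream, between genes, held 357 and 375 on soft and 383 and 418 on stiff, so every stiff value was above every soft value, at a log2 difference of 0.13 (SE 0.07, adjusted p = 0.251). Both regions overlapped H3K27ac in both lists. F3 (chr1:94994729-95007315, minus strand) had its tallest p-JUN region at the start site, with 431 and 430 scaled fragments on soft and 390 and 377 on stiff. Soft was above stiff in every library, at a log2 difference of -0.17 (SE 0.07, adjusted p = 0.108). The F3 region 38.3 kb upstream, between genes and with AP-1 and TEAD motifs, held 140 and 121 on soft and 107 and 134 on stiff, which overlapped.

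AXL (chr19:41725128-41767671, plus strand) had the highest p-JUN summits of the 8 genes, both in its introns. The region 6.7 kb downstream, near an internal start site, held 996 and 1020 scaled fragments on soft and 937 and 986 on stiff. At 4.5 kb there were 789 and 827 on soft and 736 and 751 on stiff. Stiff lay below soft at both, by log2 differences of -0.07 (SE 0.05, adjusted p = 0.374) and -0.12 (SE 0.05, adjusted p = 0.13). The fold over the local background was only 5.21 to 7.64 at these summits, because that background itself reached 119 to 162 fragments. At the main AXL start site p-JUN was called in soft replicate 1 and stiff replicate 2, with 158 and 132 fragments, and in no other library.

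AMOTL1 (chr11:94439597-94609913, plus strand), AMOTL2 (chr3:134074189-134094321, minus strand) and AJUBA (chr14:23440386-23451760, minus strand) act on the pathway that also drives them. The strongest distal p-JUN region of AMOTL1, in an intron 26.6 kb downstream, held 184 and 195 scaled fragments on soft against 206 and 226 on stiff. The one of AMOTL2, 46.6 kb downstream in an exon of LINC02004, held 181 and 180 on soft and 205 and 203 on stiff. Stiff was above soft in every library at both, at log2 differences of 0.19 (SE 0.10, adjusted p = 0.2) and 0.18 (SE 0.10, adjusted p = 0.249). At the start sites, the main AMOTL1 site held 44.8 and 57.0 on soft and 42.7 and 43.6 on stiff, and AMOTL2 held 94.3 and 81.7 on soft and 92.8 and 102 on stiff. A further AMOTL1 start site 61.9 kb upstream had p-JUN in 3 libraries, with 24 to 28 fragments. AJUBA was bound inside the gene, 4.7 kb downstream near an internal start site, with 275 and 271 on soft and 294 and 338 on stiff. Stiff exceeded soft there at a log2 difference of 0.21 (SE 0.08, adjusted p = 0.0826). The region 24.4 kb upstream of AJUBA, with 136 and 127 on soft and 111 and 148 on stiff, lay in an exon of C14orf93 and under the H3K4me3 of that gene.

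**Figure D2:**
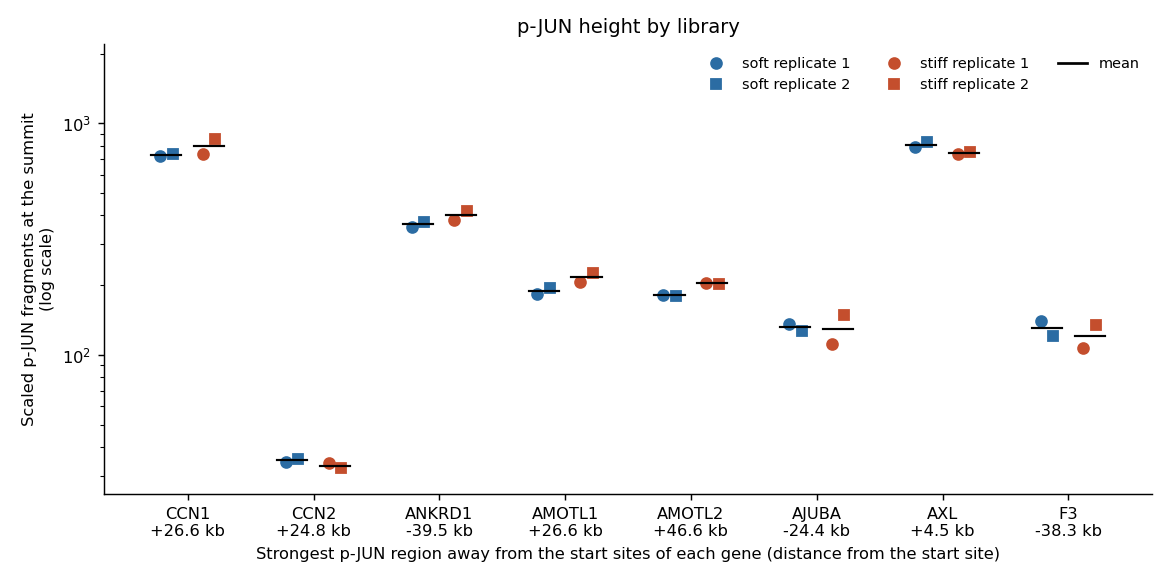
Scaled p-JUN fragments at the summit (log y axis) of the strongest region away from start sites for each gene (x axis, with the distance from the start site). Points are the 4 libraries and bars the mean of each matrix, and the values run from 32.4 at CCN2 to 852 at CCN1.

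Whether p-JUN differed between matrices was then asked over all members. The p-JUN peaks of all windows together numbered 63 and 57 for soft against 61 and 64 for stiff, a log2 ratio of 0.06 that was smaller than the spread between replicates (two-sided exact permutation test, p = 0.667, n = 4). The smallest p that 2 libraries against 2 can give is 0.333. Of the 69 regions that p-JUN formed there, 49 (71.0%) had a peak in every one of the 4 libraries, 3 on stiff alone (both stiff libraries and no soft one) and 2 on soft alone. Genome-wide, those shares were 65.8% for all 4 libraries, 2.75% for stiff alone and 1.74% for soft alone. All 5 of these single-matrix regions were low. The CCN2 region 13.0 kb downstream had 19 and 18 fragments on stiff, the AMOTL1 region 13.5 kb downstream 40 and 34, and the AMOTL2 region 25.7 kb downstream 33 and 48. On soft alone stood regions 117.0 and 158.4 kb downstream of the main AMOTL1 start site, past the end of the gene, with 35 and 33 and with 27 and 24 fragments. The second of these overlapped H3K27ac in both lists.

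Heights were compared with limma over the 40433 regions called in all 4 libraries. The variance of each region came largely from all regions of similar height, with 102.56 total degrees of freedom for p-JUN and 16.67 for H3K4me3. Its p-value therefore holds little of the spread between its own 4 libraries. At an adjusted p under 0.05, 7.97% of the 40433 regions were higher and 4.71% lower on stiff. Among the 49 member regions 1 was higher and 1 lower, with a median log2 difference of -0.01, the same as over all regions, and 11 had an unadjusted p under 0.05, beside 26.8% of all. Stiff and soft values did not overlap at 26 of the 49, 10 with stiff higher and 16 with stiff lower, beside 27.4% and 27.6% of all p-JUN regions, so a lack of overlap between 2 and 2 libraries was common. Both member regions with an adjusted p under 0.05 were at AMOTL1. The AMOTL1 region 112.0 kb downstream (chr11:94612969-94613694), past the gene and closest to the start site of CWC15, held 94.3 and 81.7 scaled fragments on soft and 116 and 124 on stiff, and rose by 0.45 on the log2 scale (SE 0.14, adjusted p = 0.0177). The AMOTL1 region 36.1 kb upstream (chr11:94464959-94466100), in an intron, held 219 and 224 on soft and 185 and 171 on stiff, and fell by 0.32 on the log2 scale (SE 0.10, adjusted p = 0.0202). In that second region H3K27ac was present in the soft list and absent from the stiff list. Of all H3K27ac regions 35.0% were in the longer soft list alone, and neither list has a replicate. The next lowest p belonged to the CCN1 region 48.6 kb downstream, with 112 and 125 on soft, 86.4 and 97.3 on stiff and a log2 difference of -0.37 (SE 0.14, adjusted p = 0.0602). Both AMOTL1 calls ended when the variance was not modelled as a trend on height (adjusted p of 0.116 and 0.179) or when the deposited fold was tested in place of fragments (0.583 and 0.921). The call at 112.0 kb also ended with quantile normalization, at an adjusted p of 0.0535. Leaving out soft replicate 1, soft replicate 2 or stiff replicate 2 ended both calls, with adjusted p of 0.0593, 0.299 and 0.0734 at 112.0 kb and of 0.171, 0.232 and 0.0879 at 36.1 kb. The CCN1 region passed the test in 3 of 9 alternatives (without stiff replicate 2, with the weaker regions left out and with a replicate block), with adjusted p between 0.031 and 0.709 over the 9. Where 1 library is left out, its matrix keeps a single library, whose spread is taken from the other matrix and from all regions.

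**Figure D3:**
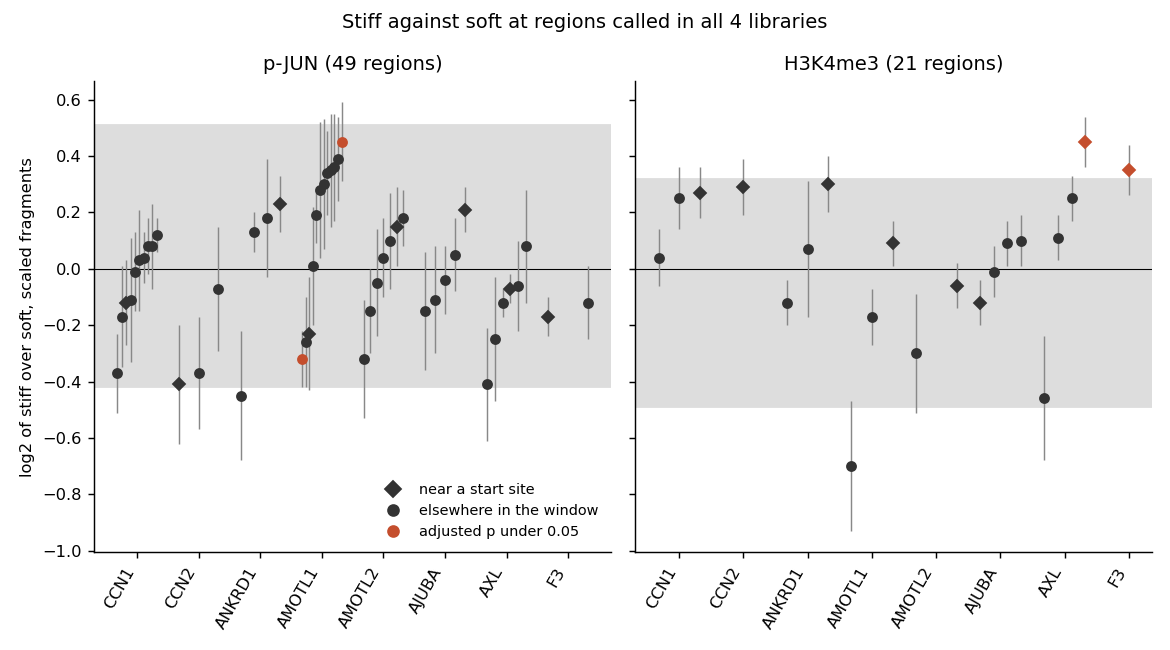
Log2 difference of scaled fragments between stiff and soft (y axis) for the member regions called in all 4 libraries, by gene (x axis), for p-JUN (left, 49 regions) and H3K4me3 (right, 21 regions). Bars are standard errors of the limma fit, the grey band spans the 5th to the 95th percentile of all regions of the mark, diamonds lie near a start site and red marks an adjusted p under 0.05. The p-JUN points scatter on both sides of 0, and 6 of the 8 H3K4me3 diamonds lie above it, against 3 of 8 when the deposited fold is used.

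H3K4me3 was tested in the same way at the start sites. AXL held 258 and 294 scaled H3K4me3 fragments on soft and 381 and 373 on stiff. Every stiff value was above every soft value, and AXL rose by 0.45 on the log2 scale (SE 0.09, adjusted p = 0.01). F3 held 243 and 274 on soft and 351 and 308 on stiff, again without overlap, and rose by 0.35 (SE 0.09, adjusted p = 0.0408). CCN1 (212 and 212 on soft, 253 and 261 on stiff) had a log2 difference of 0.27 (SE 0.09, adjusted p = 0.0851). ANKRD1 (177 and 174 on soft, 213 and 220 on stiff) had one of 0.30 (SE 0.10, adjusted p = 0.0801). For CCN2 (230 and 291 on soft, 310 and 324 on stiff) it was 0.29 (SE 0.10, adjusted p = 0.101). In these 3 genes soft and stiff did not overlap either, but the test was not passed. The CCN2 difference rested on which soft library was kept, at 0.46 without soft replicate 2 (adjusted p = 0.000676) and 0.12 without soft replicate 1 (adjusted p = 0.502), and the adjusted p ran up to 0.752 over 9 alternatives. The other 3 genes, which encode inhibitors of YAP or of LATS, had smaller differences. AMOTL1 held 322 and 310 on soft and 323 and 347 on stiff (log2 difference 0.09, SE 0.08), AMOTL2 286 and 293 against 281 and 274 (-0.06, SE 0.08), and AJUBA 380 and 391 against 336 and 374 (-0.12, SE 0.08). No overlap was seen in these genes either, with stiff higher in 6 of the 8 start-site regions and lower in 2, and 26.1% of all H3K4me3 regions were without overlap in each direction.

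**Figure D4:**
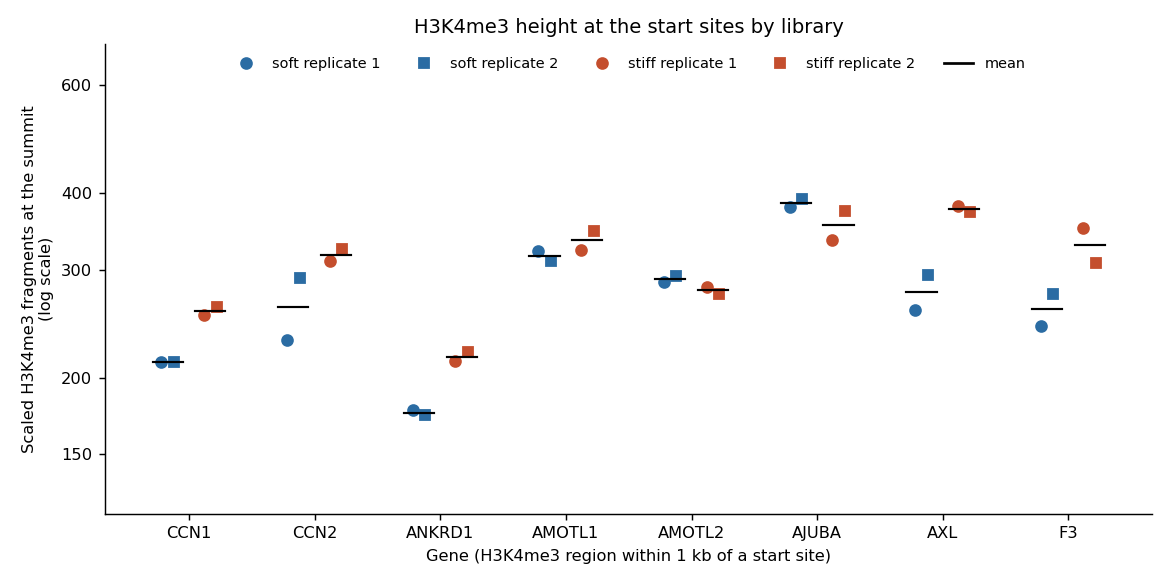
Scaled H3K4me3 fragments at the summit (log y axis) of the region within 1 kb of a start site of each gene (x axis), with the 4 libraries as points and the mean of each matrix as a bar. The gap between the bars is widest for AXL (258 and 294 against 381 and 373) and narrow for AMOTL1 and AMOTL2.

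Over 16098 H3K4me3 regions 2.97% were higher and 1.98% lower on stiff, and among the 21 member regions 2 were higher and 0 lower. An unadjusted p under 0.05 was found at 8 of them, beside 22.4% of all regions. The member regions near a start site had a median log2 difference of 0.28, and 6 of 8 were above 0, beside 55.7% and a median of 0.02 over 12582 such regions of all protein-coding genes. The deposited fold did not show this, as 3 of 8 were above 0 with it (AXL, CCN1 and CCN2) and 5 below, with a median of -0.03, beside 75.0% above 0 and a median of 0.07 over all start-site regions. For ANKRD1 the soft folds of 6.42 and 6.63 exceeded the stiff folds of 5.97 and 6.11, the reverse of the scaled fragments. No test was run of the list against those regions. Both calls ended with quantile normalization (adjusted p of 0.0586 for AXL and 0.14 for F3) and without the variance trend (0.115 and 0.195). At AXL the deposited fold over the local background was 3.86 and 4.40 for soft against 5.31 and 5.14 for stiff, without overlap, but at F3 it was 4.30 and 4.57 against 4.75 and 3.98, which overlapped. Stiff replicate 2 was the deepest H3K4me3 library. The AXL difference was past the threshold without it (adjusted p = 0.014) and without each of the other 3 libraries, but not with the deposited fold (0.312). The F3 call ended without soft replicate 1 (adjusted p = 0.0876) or stiff replicate 1 (adjusted p = 0.288).

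In the windows the 2 soft libraries had 22 and 24 H3K4me3 peaks and the stiff ones 25 and 26, a log2 ratio of 0.15 at the smallest p the design allows (exact permutation test, p = 0.333, n = 4). Of 28 regions, 21 (75.0%) were called in all 4 libraries, 1 on stiff alone and 0 on soft alone, where all H3K4me3 regions gave 78.9%, 1.77% and 1.25%. The region on stiff alone lay in F3, 3.1 kb downstream of its start, with 153 and 236 fragments at a fold of 2.13 and 2.19, next to the start-site region that was higher on stiff. The H3K4me3 region with the lowest log2 difference in the windows, 26.3 kb downstream in AMOTL1, was weak and did not pass the test (33.9 and 51.3 scaled fragments on soft, 25.6 and 25.7 on stiff, log2 difference -0.70, SE 0.23, adjusted p = 0.0903).

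On soft the windows held 29 H3K27ac peaks and on stiff 19, which is a log2 ratio of -0.61 (-1.53 to 0.27, a 95% exact binomial interval that treats peaks as independent counts). The soft list is the longer one, and with both lists cut to equal length the ratio was -0.14. It was -0.30 with peaks of −log10 q of at least 10, -0.91 in windows of 10 kb and -0.33 in windows of 100 kb on each side. The lists have no replicate. Of 31 regions 17 (54.8%) were in both lists, 12 in the soft list alone and 2 in the stiff list alone. Over the genome this was 54.1%, 35.0% and 10.9%, so the division within the windows was near the background. The 2 regions on stiff alone were at AXL, 6.5 kb downstream, where p-JUN was at its highest, and 42.6 kb downstream of AJUBA beside PRMT5. For regions in both lists the ratio of summit fragments was centred on the median of all 11044 such regions. Over all of them the 5th and 95th percentiles were -0.58 and 0.62. All 5 of CCN1 were above 0, from 0.29 to 0.50 on the log2 scale, and inside that range. Each 95% exact binomial interval of these 5 included 0. The binomial intervals cover counting error only, since the lists have no replicate. Fragments from PCR are not independent molecules, so the intervals may be too narrow even for that. The ANKRD1 region 49.1 kb upstream had the highest ratio, 0.78 (0.00 to 1.57), from 25 fragments for soft and 37 for stiff, and the one 39.6 kb upstream had -0.42 (-1.22 to 0.36), from 37 and 24. AXL at 4.5 kb, the deepest with 101 and 86 fragments, was at -0.02 (-0.45 to 0.41). Of all 17 ratios 10 were above 0, and their median was 0.08.

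**Figure D5:**
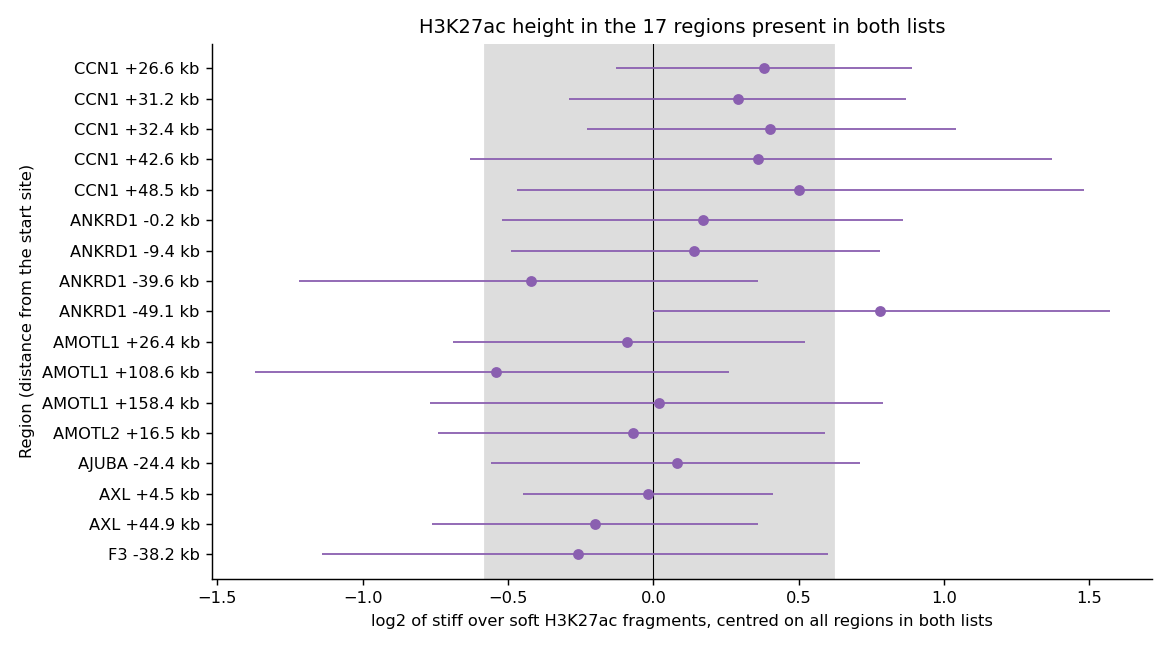
Log2 ratio of stiff to soft H3K27ac summit fragments (x axis), centred on the median of all regions present in both lists, for the 17 member regions (y axis, with the distance from the start site). Bars are 95% exact binomial intervals for counting error, and the grey band spans the 5th to the 95th percentile of all regions. All 5 CCN1 regions lie right of 0 and inside the grey band, with intervals that include 0.

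H3K27me3 peaks in the windows were few. Their density was not set against that of the genome, so the low counts are not evidence of depletion. In the windows 5 and 1 peaks were called on soft against 0 and 2 on stiff (log2 ratio -1.58, exact permutation test, p = 0.667, n = 4). They fell in 7 regions, 1 at CCN1, 3 at ANKRD1 and 3 at AMOTL1, with a −log10 q of 1.4 to 2.8. None of the 7 was called in all 4 libraries, on stiff alone or on soft alone, where 10.2%, 0.484% and 7.54% of all H3K27me3 regions were.

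p-JUN regions of the members were then described by what lies in and on them. Of the 49 called in all 4 libraries, 25 (51.0%) overlapped H3K27ac of either list, beside 39.4% of all p-JUN regions, and 14 (28.6%) overlapped H3K4me3 of all 4 libraries, beside 19.7%. An AP-1 motif lay within 50 bp of 15 summits (30.6%), beside 34.8% of all, and a TEAD motif near 8 (16.3%, Wilson 95% interval 8.51 to 29.0), beside 9.9%. Within 100 bp a TEAD motif lay near 13 (26.5%) and an AP-1 motif near 19 (38.8%). Shares over all regions at that width are not given here, so 26.5% cannot be set against 9.9%. In the windows of 16 other YAP targets a TEAD motif lay within 50 bp of 10 of 157 summits (6.37%). Both motifs stood together at 2, among them F3 at 38.3 kb (4.08%), beside 3.56%, and 28 summits (57.1%) had neither, beside 58.8%. No CArG box, the motif of serum response factor, lay within 50 bp of any of the 49, and 0.512% of all regions had one. AMOTL1 held 5 of the AP-1 summits, with a pair of motifs at 67.5 and at 112.0 kb, the second being the region that rose. CCN1 held 3 of the TEAD summits, at 3.7, 32.2 and 42.4 kb. The region that fell at AMOTL1 had neither motif within 50 bp of its summit, but 1 AP-1 motif within 100 bp. A match to these letters is a description of the DNA and not a mapped binding site.

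A further 16 genes named as YAP targets (MYOF, LATS2, ASAP1, IGFBP3, CRIM1, FJX1, FOXF2, GADD45A, CCDC80, NT5E, DOCK5, PTPN14, ARHGEF17, NUAK2, TGFB2 and RBMS3) were counted for comparison. H3K4me3 lay near a start site in all 4 libraries in 13 of them and p-JUN in 12. Among their 157 p-JUN regions called in all 4 libraries, 20 were higher and 2 lower on stiff, 6 of the 20 at DOCK5, beside 7.97% and 4.71% of all p-JUN regions. Over all regions no p-JUN call was left without the variance trend or with the deposited fold. Among their 33 such H3K4me3 regions 2 were higher and 0 lower, at the start sites of NT5E (log2 difference 0.35, SE 0.08, adjusted p = 0.0213) and GADD45A (0.32, SE 0.08, adjusted p = 0.0373). All 13 start-site regions that could be tested lay above 0, from 0.06 to 0.35 with a median of 0.18, beside 55.7% of all start-site regions. With the deposited fold 10 of the 13 lay above 0, beside 75.0% of all. H3K27ac lay near a start site in both lists in 2 of the 16 and in the soft list alone in 3.

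The windows also take in other genes, 1 for CCN1 (DDAH1), ANKRD1 (RPP30) and F3 (ABCD3), 4 for AXL (CCDC97, CYP2S1, HNRNPUL1 and TGFB1) and 5 for AJUBA. Regions at the starts of those genes, such as HNRNPUL1 44.8 kb downstream of AXL, are counted with the members. Nothing in a peak list assigns a distal region to a gene.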

How the data were processed

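CUT&Tag peak lists of LX-2 cells on soft and stiff matrices were used. Per the submitters' processing notes and the study's methods, the authors trimmed reads with Trim Galore, aligned them to hg19 with Bowtie2 and marked duplicates with Picard. The lists are in the format of MACS2, which the study lists among its tools. Versions, peak-calling options and control libraries are not given in the sources used here. The deposited lists give each peak a fold over the local background, which is a ratio, −log10 p and −log10 q values, a score that follows −log10 q, and the offset of the summit. Each H3K27ac list is named as a merge of libraries.

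For narrow peaks, the deposited fold and −log10 p were solved for the fragments at the summit and in the local background (relative error under 1e-04 in at least 99.98% of peaks). Peaks of a mark sharing at least 1 bp were merged into regions, on 24 chromosomes. Genes were those of GENCODE release 44 mapped to GRCh37. Regions called in all 4 libraries were tested on log2 scaled fragments with limma 3.58.1 in R 4.3.3 (eBayes with a variance trend, Benjamini-Hochberg adjustment over all regions of the mark), after scaling each library by the median ratio. On simulated p-JUN counts for 40433 regions, 80% of 100 regions changed 2-fold and 21% of 100 changed 1.5-fold were recovered, with 3 false calls. The simulated spread between libraries was set by hand and not estimated from the data. Far fewer regions were changed than the data gave as calls, so these shares may not hold for the real libraries. Exact permutation tests, two-sided, compared window counts. Motifs were counted within 50 bp of the summit. The sequence of 1 further site is not reported here. Other windows (10 and 100 kb), thresholds, scalings, left-out libraries and a replicate block were tried. Named regions were those near a start site, the strongest distal p-JUN region per gene, regions on 1 matrix alone and those with the lowest p. Regions named beyond that rule were chosen after their values were seen. The members and lists were chosen with earlier results of these data known. No read totals were used, so for H3K27me3 no depth is known. Other software was pandas 2.3.3, numpy 2.4.6, pysam 0.24.0, scipy 1.17.1 and matplotlib 3.10.9 under Python 3.11.15.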

Additional observations from a re-analysis of the deposited data

How the results depend on the processing

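The log2 ratio of stiff to soft p-JUN peaks in the windows (0.06) changed sign with peaks of −log10 q of at least 10 (-0.01) and with lists of equal length (-0.03), and ran from -0.01 (without soft replicate 2) to 0.13 when 1 library was left out. For H3K27me3 (-1.58) it became 1 with lists of equal length and ran from -2.32 to 0 with 1 library left out. No H3K27me3 value could be had with 10 kb windows, nearest start sites, a replicate block or without stiff replicate 2, where a library held no peak. For H3K4me3 (0.15) it ran from 0.09 to 0.21 with 1 library left out, and the replicate block gave 0.06 for p-JUN and 0.15 for H3K4me3. The 2 p-JUN calls among member regions became 0 with the deposited fold and 0 without the variance trend (3 and 8 at an unadjusted p under 0.05), and 0 to 7 with 1 library left out. The 2 H3K4me3 calls became 0 with quantile normalization, 0 with the deposited fold and 0 without the trend (8, 4 and 7 unadjusted), 1 with the weaker regions left out, and 1 to 3 with 1 library left out. With the replicate block there were 3 p-JUN calls and 1 H3K4me3 call, with CCN1 at 48.6 kb gained (adjusted p = 0.0436) and F3 lost (0.0658). Replicate numbers did not pair the libraries (correlation of deviations 0.051 for p-JUN and -0.061 for H3K4me3). With the deposited fold the H3K4me3 log2 difference changed sign at F3 (-0.03), ANKRD1 (-0.11) and AMOTL1 (-0.04). Over all regions, limma called 3222 higher and 1903 lower for p-JUN, against 0 and 0 without the trend (9031 unadjusted) and 0 and 0 with the deposited fold (3111 unadjusted). For H3K4me3 it called 478 and 319, against 56 and 45 with quantile normalization, 3 and 3 without the trend, 0 and 0 with the deposited fold (2209 unadjusted), 296 and 220 with the replicate block, and 357 and 36 with the weaker regions left out. Without 1 library the p-JUN calls ran from 1185 to 3374 higher and from 296 to 2006 lower, and those of H3K4me3 from 170 to 904 higher and from 161 to 511 lower. The H3K27ac ratio of peaks ran from -0.91 to -0.14 over its alternatives. The share of member p-JUN regions over H3K27ac fell from 51.0% to 32.7% when 50% of the region had to be covered. Genes with H3K27ac near a start site on soft alone went from 3 to 1 with lists of equal length and to 1 with −log10 q of at least 10, alternatives chosen after seeing the data. Why these values moved was not tested. Heights rest on a median of 60 to 64 fragments for p-JUN and 26 to 27 for H3K27ac. In the simulation, whose spread was set by hand, 21% of 1.5-fold p-JUN changes were recovered.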
